A study of Mus musculus with 8 samples.

Results

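Islets that lost Sirt6 throughout the endocrine lineage (EKO) were compared with their own controls in 4 of the 8 libraries of the series, 2 per group, chosen by their labels alone and described across the 15041 genes with enough reads to test. EKO mice were Ngn3-Cre Sirt6 f/f and their controls Ngn3-Cre Sirt6 +/+, so all 4 libraries carry the Cre driver. The genotypes as labelled differ in the floxed alleles, and other differences of a mixed background cannot be told apart from these. The mice were males of a mixed background, given as 8 to 9 weeks old in the sample labels and as 2 months in the design text. Islets were isolated by collagenase perfusion and kept for 4 h in medium with 10% fetal serum, and roughly 100 ng of RNA went into each stranded poly(A) library. The other 4 libraries of the series are BKO, MIP1-CreERT Sirt6 f/f islets taken 2 weeks after tamoxifen, which starts the deletion in adult beta cells, and its controls, MIP1-CreERT with 1 library Sirt6 f/+ and 1 Sirt6 +/+. They entered here through the estimate of the spread and 1 comparison of effects. Nothing in the labels says that the 2 libraries of a group came from separate animals, so a p-value here reflects how these samples vary, and that variation could be technical.

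Sirt6 is a chromatin-bound deacylase that removes acyl marks from histone H3 and restrains transcription at many promoters, and in liver and muscle it is known for holding back glycolytic and stress programmes. Ngn3 is the transcription factor of pancreatic endocrine progenitors. A Cre driven from it therefore recombines before alpha, beta, delta and PP cells separate, and every hormone cell type of the islet can carry the deletion. Duct, acinar, stromal, vascular and immune cells do not descend from that lineage as a rule. Their RNA in an islet preparation comes from tissue carried over from the surrounding pancreas or from cells resident among the endocrine cells.

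The libraries held the RNA of islets, with a varying share of other tissue. Gene reads numbered 23673180 and 22330252 in control replicates 1 and 2 and 22592798 and 22662190 in EKO replicates 1 and 2, and the insulin genes took 13.8% and 21.8% of them in the controls and 17.5% and 25.1% in EKO. All 30 beta cell and all 18 alpha cell markers had reads in each of the 4 libraries. Levels below are CPM, counts scaled to the gene reads of a library, after TMM normalisation. Sirt6 itself was at 24.4 and 17.0 CPM in control islets versus 24.2 and 21.6 CPM in EKO. The groups overlapped, so a loss of Sirt6 was not seen in its RNA level. Reads were counted per gene and not per exon, so the level does not check the genotype. Why it did not fall was not tested.

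Carried-over tissue set apart 1 library of each genotype. The summed level of 38 tested acinar markers was 10991 and 789 CPM in control islets versus 3032 and 348 CPM in EKO, so that the libraries numbered 1 were high in both groups. Stellate cell and fibroblast markers were also high in the libraries numbered 1, at 5928 and 471 CPM versus 3165 and 773 CPM, as were duct cell markers, at 9113 and 1688 CPM versus 5218 and 2684 CPM. Of the libraries numbered 2, EKO was the higher for these 2 lists and control for the acinar list. Within these lists the digestive protease gene Ctrb1 was at 3209 and 156 CPM in control islets versus 895 and 79.9 CPM in EKO, and the collagen gene Col3a1 at 1107 and 4.79 CPM versus 411 and 33.7 CPM.

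Immune cells were distributed differently. Lymphocyte markers summed to 127 and 12.8 CPM in control islets versus 22.2 and 149 CPM in EKO, so here control replicate 1 and EKO replicate 2 were high. Of the 33 lymphocyte markers in the table, 2 and 18 had no read in control replicates 1 and 2, and 11 and 2 in EKO replicates 1 and 2. Neutrophil markers summed to 620 and 12.5 CPM in control islets versus 196 and 24.4 CPM in EKO. Most of each sum was a single gene, Lcn2, at 502 and 9.94 CPM versus 172 and 20.8 CPM. Of the 16 neutrophil markers counted, 4 and 10 had no read in control replicates 1 and 2, and 7 and 10 in EKO replicates 1 and 2. Macrophage and dendritic cell markers lay at 1427 and 464 CPM in control islets versus 634 and 689 CPM in EKO. Endothelial markers were nearly level, between 768 and 1067 CPM. No list of these other cell types separated the genotypes, since in each the EKO and control libraries overlapped in summed level.

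**Figure D1:**
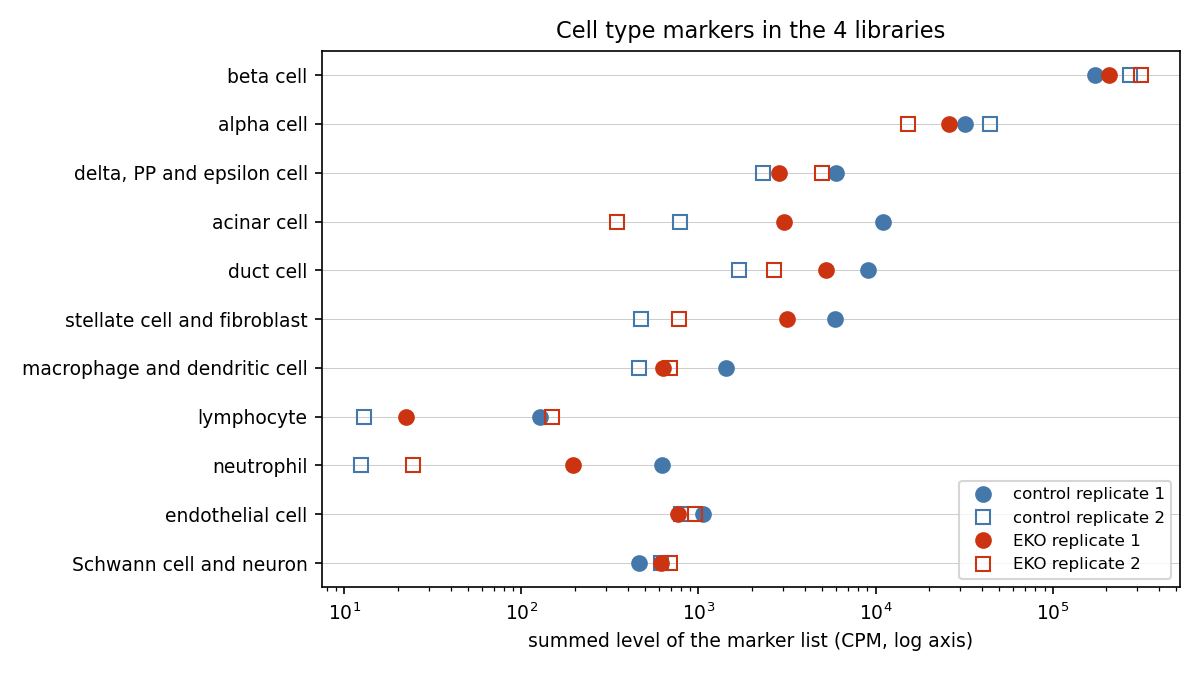
Summed level of each cell type marker list in CPM (log axis), 1 point per library, with control libraries in blue, EKO libraries in red, replicate 1 filled and replicate 2 open. Acinar, duct, stellate and neutrophil lists are highest in control replicate 1 and EKO replicate 1, the lymphocyte list in control replicate 1 and EKO replicate 2, and the alpha cell list is lower in both EKO libraries than in both controls.

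Replicates differed widely inside each genotype, and the cause was not tested. The immediate early and heat shock list, which can reflect handling, also split by replicate number. Its summed level was 3254 and 1058 CPM in control islets versus 4077 and 1018 CPM in EKO. Of the tested genes, 3356 (22.3%) were at least 2-fold apart between the control libraries and 2166 (14.4%) between the EKO libraries. The chi-square per degree of freedom between replicates was 224 for the controls and 130 for EKO, far above the value near 1 of sampling noise. Against this spread the quasi-likelihood test of edgeR, adjusted by Benjamini-Hochberg, called 1 of 15041 genes (0.00665%), Ambp, and limma-voom called the same gene. At an unadjusted p under 0.05 edgeR had 556 genes (3.7%), of which 318 (2.11%) were higher and 238 (1.58%) lower in EKO, and limma-voom had 447 (2.97%). DESeq2 called 86 genes (0.572%), 55 higher (0.366%) and 31 lower (0.206%). In each of those 86 genes both EKO libraries lay on one side of both controls, beside 22.1% of all tested genes. DESeq2 chose them for their difference in the same libraries, which largely fixes this, so it is no separate support.

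Beyond the call, genes were described by whether they held in all 4 pairings of an EKO with a control library. Both EKO libraries were above both controls for 1879 genes (12.5%) and below for 1440 (9.57%). At least 1.5-fold in every pairing were 147 higher (0.977%) and 126 lower genes (0.838%). At least 2-fold in every pairing, after 0.5 CPM was added to each level, were 58 higher genes (0.386%) and 32 lower ones (0.213%), 90 in all (0.598%). DESeq2 called 50 of the 90 (55.6%), and these were 58.1% of its calls. None of the 90 belongs to the acinar, duct, stellate, endothelial, macrophage, lymphocyte, neutrophil, Schwann cell or red blood cell lists. The choice of the 90 largely fixes this, since genes that differ widely between replicates can hardly hold in every pairing. All 90 kept their sign when the mean acinar and macrophage levels entered the fit as covariates, and also with the acinar and lymphocyte levels. An unadjusted edgeR p under 0.05 was held by 87 of them in the fit without covariates, by 82 with the former pair and by 84 with the latter. Of all 15041 tested genes, 556, 1077 and 984 had such a p in these fits. As the 90 were chosen for their difference in the same libraries, their signs and p-values are no separate support.

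**Figure D2:**
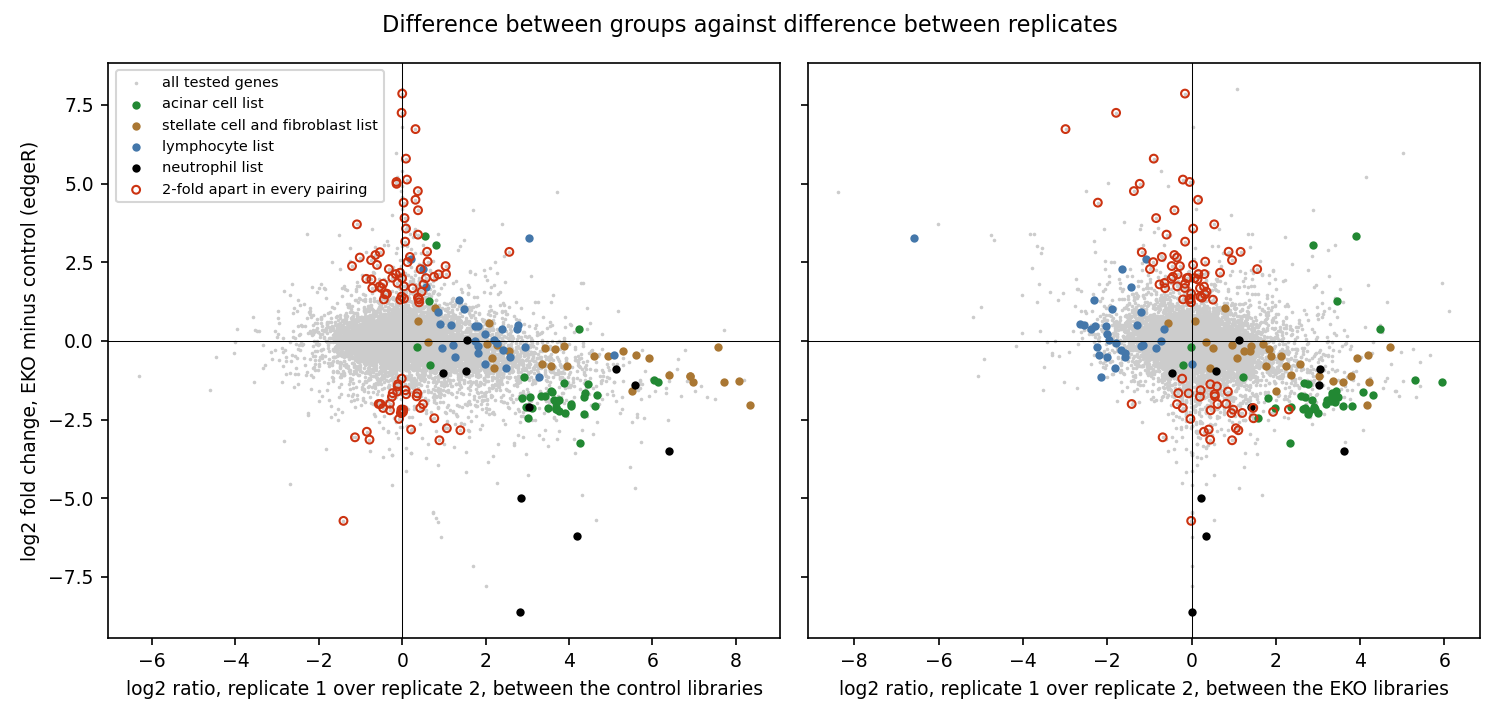
Log2 fold change of EKO minus control by edgeR (vertical axis) against the log2 ratio of replicate 1 over replicate 2 in the controls (left) and in EKO (right), 1 point per tested gene. Acinar and stellate genes lie far to the right in both panels and lymphocyte genes to the right in the controls and to the left in EKO. Most genes at least 2-fold apart in every pairing (red rings) sit near 0 on the horizontal axes, a position that their choice favours.

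Ambp rose in EKO. Its product is a precursor cut into alpha-1-microglobulin, a plasma scavenger of haem and radicals, and bikunin, a protease inhibitor, and it is best known from hepatocytes. The controls held 655 and 639 reads and EKO 21140 and 20384, which is 27.0 and 29.7 CPM versus 925 and 954 CPM. Replicates of a genotype lay close together and the lowest EKO level was 30.7-fold above the highest control, a gap between nearest libraries that is computed, here and below, after 0.5 CPM was added. The log2 fold change was 5.05 ± 0.20 (SE, n = 2 per group, edgeR adjusted p = 0.00150). Across 18 alternatives it ranged from 4.95 to 5.13, and the adjusted p was 0.382 in a fit of the 4 libraries alone and 0.0842 without the libraries numbered 2, 1 of each genotype. Of the 35 tested plasma and acute phase protein genes to which it belongs, 11 had a log2 fold change above 0 and 24 below, with a median of -0.69, against a median of -0.01 over all tested genes, and the list median was 2.06 without control replicate 1.

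Th had the next largest fold change among genes with a mean of at least 100 CPM in EKO. Its product, tyrosine hydroxylase, carries out the limiting step in making dopamine and other catecholamines. Its level was 38.1 CPM in control replicate 1, 29.2 CPM in control replicate 2, 279 CPM in EKO replicate 1 and 421 CPM in EKO replicate 2. The groups stood 7.23-fold apart at their nearest libraries, and the log2 fold change of 3.38 ± 0.33 did not pass in edgeR (adjusted p = 0.194), though it did in DESeq2. Pcbd1, which regenerates the tetrahydrobiopterin cofactor that Th and other hydroxylases use, was at 88.8 and 108 CPM in control islets versus 142 and 147 CPM in EKO, a log2 difference of 0.55 ± 0.16 that passed in neither tool. In the list of 16 tested genes of catecholamine, serotonin and GABA synthesis, 9 were higher and 7 lower, with a median log2 fold change of 0.23 that was 0.0053 without control replicate 1. In 18.8% of them the groups did not overlap, beside 22.1% of all tested genes.

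Promoters are shown for Ambp, Th and Tmtc1, all among the genes with the smallest edgeR p. The sequences are the 250 bases before the annotated start in RefSeq (GRCm38.p6), each on the minus strand and written 5′ to 3′ along the gene, whereas the reads were counted on mm9. Ambp lies at chr4:63154173-63154422, Th at chr7:142899996-142900245, and Tmtc1, the gene with the smallest p among those lower in EKO, at chr6:148444353-148444602. Capitals mark matches on either strand to TGACGTCA (the cyclic AMP response element), TGANTCA (an AP-1 site) and TGACNNNGC (an antioxidant response element core).
Ambp: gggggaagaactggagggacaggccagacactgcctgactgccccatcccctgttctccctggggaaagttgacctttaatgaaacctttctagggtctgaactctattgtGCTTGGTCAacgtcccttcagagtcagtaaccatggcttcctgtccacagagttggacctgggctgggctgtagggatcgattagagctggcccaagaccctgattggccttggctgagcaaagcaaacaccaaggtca
Th: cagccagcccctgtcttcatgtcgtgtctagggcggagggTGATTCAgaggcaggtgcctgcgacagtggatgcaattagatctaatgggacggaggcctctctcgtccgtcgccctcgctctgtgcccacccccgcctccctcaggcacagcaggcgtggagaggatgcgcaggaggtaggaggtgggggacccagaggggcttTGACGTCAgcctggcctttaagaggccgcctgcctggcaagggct
Tmtc1: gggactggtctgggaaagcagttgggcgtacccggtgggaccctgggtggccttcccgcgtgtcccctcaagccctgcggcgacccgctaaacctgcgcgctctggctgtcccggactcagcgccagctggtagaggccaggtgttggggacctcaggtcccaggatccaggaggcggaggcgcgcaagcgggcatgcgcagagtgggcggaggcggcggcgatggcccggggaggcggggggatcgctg
The Th window holds a cyclic AMP response element from 45 to 38 bases before the start and an AP-1 match from 210 to 204 bases before it, which do not overlap. The Ambp window holds 1 match to the antioxidant core, on the opposite strand, from 139 to 131 bases before the start. None of the 3 motifs occurs in the Tmtc1 window. Of 27025 genes with a promoter in the table, 1.77% hold TGACGTCA, 7.82% TGANTCA and 11.5% TGACNNNGC, and of the 10534 of them that were tested 3.05%, 6.0% and 14%. Among the genes at least 2-fold apart in every pairing, 38 higher and 23 lower ones had an entry. TGACGTCA was in 2 and 0 of them, TGANTCA in 6 and 1, and TGACNNNGC in 4 and 2. These matches describe the letters of the windows only.

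Several other transcripts at least 2-fold higher in every pairing are, like Ambp, best known from liver or gut, a grouping made after their values were seen. Nr1i2, the pregnane X receptor, a nuclear receptor for drugs and bile acids, had 1 read in each control and 68 and 246 reads in EKO, a pooled ratio of 163, with an exact 95% interval of 44.7 to 1350 that covers counting error only.

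F2, which encodes prothrombin, was at 1.40 and 3.35 CPM in control islets versus 13.0 and 16.7 CPM in EKO (log2 fold change 2.65 ± 0.52, edgeR adjusted p = 0.750). Serpina1b, an alpha-1-antitrypsin gene, was at 0.453 and 0.232 CPM versus 5.25 and 7.12 CPM, but mouse Serpina1 copies are nearly identical and share reads, so its value is uncertain. Both were called by DESeq2 and not by edgeR. Pipox, a peroxisomal sarcosine oxidase, lay at 0.082 and 0.139 CPM in control islets versus 1.97 and 5.29 CPM in EKO, and Cpb2, the plasma carboxypeptidase that slows fibrinolysis, at 0.905 and 1.25 CPM versus 3.37 and 7.16 CPM. Genes known from the intestinal epithelium were among them too. Bcmo1, the enzyme that cleaves beta-carotene, was at 19.1 and 13.7 CPM in control islets versus 54.4 and 42.4 CPM in EKO, and Cdhr2, a protocadherin of the brush border, at 6.50 and 3.62 CPM versus 17.6 and 24.1 CPM. DESeq2 called Pipox, Bcmo1 and Cdhr2 but not Cpb2, and edgeR called none of them. In each of these genes the groups did not overlap, a property that their choice fixes.

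Other hepatocyte products were not higher in EKO in this way. Of the 35 tested plasma and acute phase protein genes, 4 lay above and 4 below both controls, 22.9% in all, beside 22.1% of all tested genes. Alb, the albumin gene, was at 0.247 and 0.790 CPM in control islets versus 0.219 and 0.421 CPM in EKO, and Apoa1 at no more than 0.657 CPM in any library. The fibrinogen genes were highest in control replicate 1, with Fgb at 217 and 7.81 CPM in control islets versus 48.8 and 6.98 CPM in EKO, the order of the acinar markers. Fgg, a fibrinogen chain, lay below both controls, at 42.5 and 5.02 CPM in control islets versus 3.20 and 0.749 CPM in EKO, with a log2 fold change of -3.59 ± 1.37 (edgeR adjusted p = 1) that ranged from -4.98 without EKO replicate 1 to -1.38 without control replicate 1. Itih2, a heavy chain that is joined to bikunin, was lower in every pairing too, at 3.25 and 1.72 CPM versus 0.832 and 0.468 CPM, and passed in neither edgeR nor DESeq2. Hnf4a, a transcription factor shared by hepatocytes, gut and islets, was at 43.7 and 37.8 CPM in control islets versus 43.2 and 52.8 CPM in EKO, and Foxa2 at 30.7 and 74.9 CPM versus 25.6 and 66.9 CPM, with overlapping groups in both.

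Genes of the antioxidant response driven by the transcription factor NRF2 leaned towards higher values. Of 44 tested members 34 were higher and 10 lower, with a median log2 fold change of 0.17. Of all tested genes 48.6% were higher. Both EKO libraries lay above both controls for 11 members and below for 0, so 25% did not overlap, near the 22.1% of all tested genes. By direction, 12.5% of all tested genes lay above both controls and 9.57% below. The median stayed between 0.085 and 0.38 across the alternatives. Nqo1, the NAD(P)H quinone dehydrogenase that is a standard NRF2 target, was at 6.42 and 9.53 CPM in control islets versus 34.3 and 78.3 CPM in EKO. It stood 3.47-fold apart at the nearest libraries (log2 fold change 2.82 ± 0.42, edgeR adjusted p = 0.627). Of the 44 members it was the only 1 called by DESeq2, beside 0.572% of all tested genes. Gstm3, a glutathione transferase, was at 0.453 and 0.372 CPM versus 1.49 and 3.23 CPM, and Cbr1, a carbonyl reductase, at 19.7 and 31.0 CPM versus 38.6 and 52.4 CPM. Neither passed in edgeR or DESeq2. Glutathione transferases of the Gstm cluster resemble each other closely, which makes the Gstm3 count uncertain.

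Genes of the neuronal cytoskeleton and of the cell surface were also among those higher in EKO. Nefm, the medium neurofilament chain, was at 16.6 and 18.0 CPM in control islets versus 48.3 and 75.6 CPM in EKO. Mapt, which encodes tau, was at 32.9 and 37.8 CPM versus 76.3 and 74.1 CPM. Replicates were near each other for Mapt, while for Nefm the 2 EKO libraries were less even. The groups did not overlap for either gene, a property that the rule that named them requires. Their log2 fold changes were 1.84 ± 0.27 for Nefm and 1.09 ± 0.17 for Mapt (edgeR adjusted p = 0.627 for each). The list of 37 tested neuronal cytoskeleton and microtubule genes as a whole had 21 higher and 16 lower members and a median of 0.06, which was 0.49 without control replicate 1. DESeq2 called Nefm and Mapt in it as higher and Ank2 as lower, beside 0.366% higher and 0.206% lower of all tested genes.

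Inadl, a scaffold protein of tight junctions, was among the most even genes, at 68.4 and 66.4 CPM in control islets versus 170 and 173 CPM in EKO (log2 fold change 1.35 ± 0.16, edgeR adjusted p = 0.359), and stayed between 1.32 and 1.37 across the 18 alternatives. Fxyd6, a regulator of the sodium pump, was at 87.1 and 118 CPM in control islets versus 239 and 274 CPM in EKO. Thsd4, a matrix protein that binds fibrillin, was at 18.3 and 18.5 CPM versus 52.4 and 45.3 CPM. Apod, a secreted lipocalin that carries lipids, was at 4.81 and 5.76 CPM versus 20.7 and 21.8 CPM. These 4 genes passed in DESeq2 and not in edgeR. The X-linked genes Upf3b, a factor of nonsense-mediated mRNA decay, and Maged2, of the melanoma antigen family, lay at 89.6 and 88.2 against 172 and 155 CPM and at 134 and 94.3 against 257 and 229 CPM. Rps4y2, Morf4l1 and 2610524H06Rik also stood at least 2-fold apart, but the first 2 have near-identical copies whose shared reads were not counted, and their values are uncertain.

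**Figure D3:**
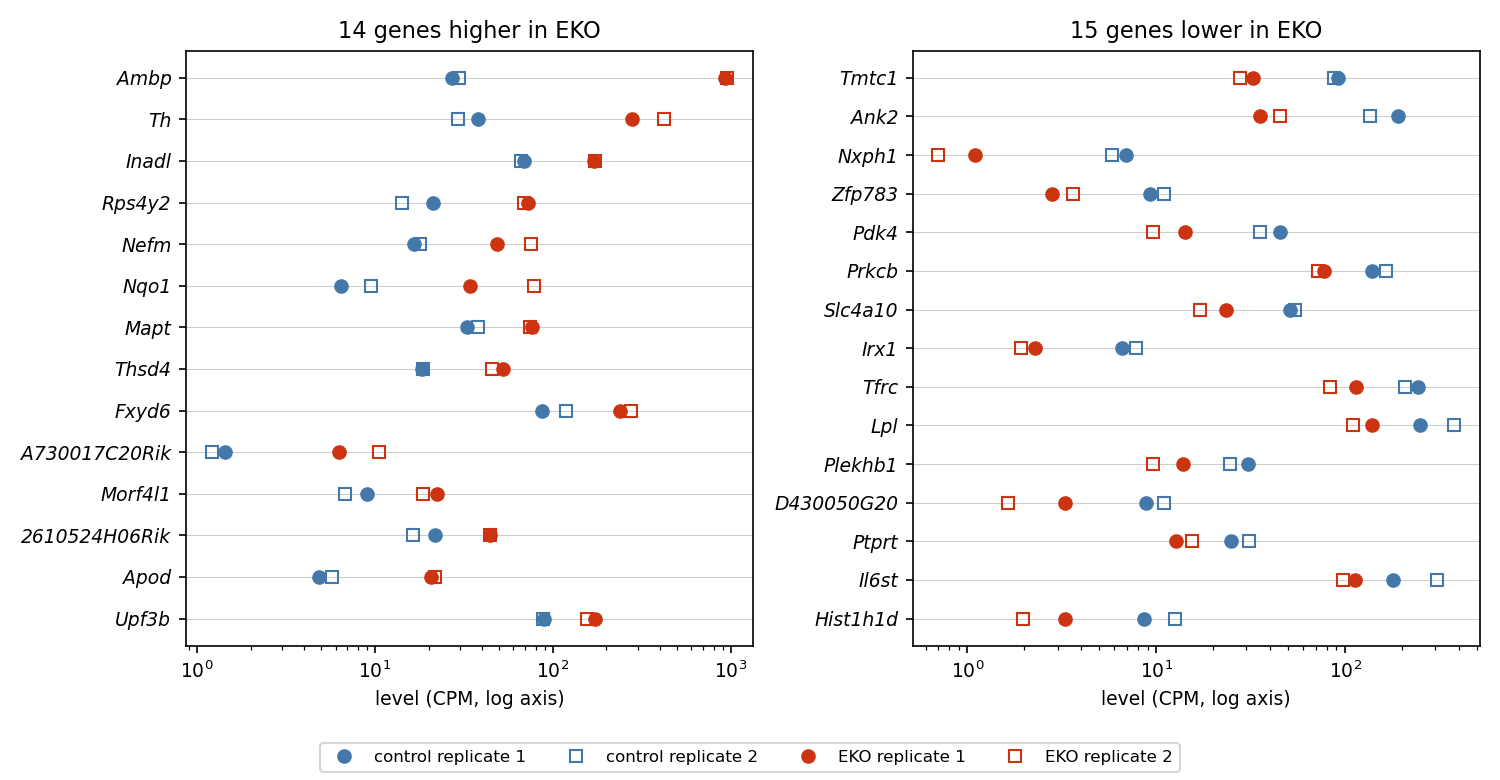
Level in CPM (log axis) in each of the 4 libraries for 14 of the 15 higher and for the 15 lower genes with the smallest edgeR p among those at least 1.5-fold apart in every pairing and with a mean of at least 5 CPM in the higher group. The 2 red points of each gene lie on one side of its 2 blue points, a property the choice of genes fixes, with the widest gap for Ambp.

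A large fold change did not always rest on both EKO libraries. Kcnj5, a subunit of G protein-gated potassium channels, was at 0.329 and 0.418 CPM in the controls, 46.1 CPM in EKO replicate 1 and 0.936 CPM in EKO replicate 2. DESeq2 called it, yet its log2 fold change ran from 1.15 to 7.12 across the alternatives, the low value being that without the libraries numbered 1. Sult1d1, a sulfotransferase acting on catecholamines, was spread in both groups, at 6.83 and 22.9 CPM versus 35.5 and 134 CPM. By contrast Slc6a15, a transporter of neutral amino acids, was at 0.700 and 0.744 CPM in control islets versus 4.11 and 2.39 CPM in EKO, higher in both (log2 fold change 2.17 ± 0.46, edgeR adjusted p = 0.757).

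Among lower genes Tmtc1, which encodes a mannosyltransferase of the endoplasmic reticulum, had the smallest p. It was at 91.7 and 86.9 CPM in control islets versus 32.4 and 27.8 CPM in EKO, and its log2 fold change of -1.57 ± 0.17 (edgeR adjusted p = 0.194) stayed between -1.68 and -1.46 across the alternatives. Ank2, the adaptor ankyrin-B that anchors channels to the spectrin skeleton, was at 191 and 135 CPM in control islets versus 35.6 and 45.3 CPM in EKO (-2.01 ± 0.26, edgeR adjusted p = 0.413). DESeq2 called both.

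Further lower genes are known from synapses and neuroendocrine cells. Nxph1, a secreted ligand of neurexins, was at 6.87 and 5.86 CPM in control islets versus 1.09 and 0.702 CPM in EKO (log2 fold change -2.82 ± 0.48, edgeR adjusted p = 0.627), a gap of 3.99-fold between its nearest libraries, the widest of the lower genes. Pdyn, the precursor of dynorphin opioid peptides, was at 44.6 and 45.7 CPM versus 13.0 and 5.38 CPM, with EKO replicate 2 the lowest. Slc4a10, a sodium-driven bicarbonate transporter of neurons and endocrine cells, was at 50.9 and 54.6 CPM versus 23.5 and 17.1 CPM. Ptprt, a receptor tyrosine phosphatase, was at 24.7 and 31.1 CPM versus 12.7 and 15.5 CPM, and Lrrtm4, a synaptic adhesion protein, at 4.44 and 3.35 CPM versus 1.18 and 1.26 CPM. In the list of 52 tested adhesion and synapse genes 34 were lower and 18 higher, with a median log2 fold change of -0.21 (-0.27 to -0.052 across the alternatives). Of that list 11 members lay below and 5 above both controls, 30.8% not overlapping beside 22.1% of all tested genes. DESeq2 called 1 in each direction, beside 0.366% higher and 0.206% lower of all tested genes.

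Most markers of alpha cells had lower values in EKO. Of the 18 listed, 15 had a log2 fold change below 0, with a median of -0.68 (-0.91 to -0.18 across the alternatives), and 8 lay below both controls against 0 above. That is 44.4% of the list not overlapping, beside 22.1% of all tested genes and 9.57% below both controls. Irx1 and Irx2, homeodomain transcription factors typical of alpha cells within the islet, were the 2 of 18 called by DESeq2. Of all tested genes it called 0.572%. Irx1 was at 6.54 and 7.85 CPM in control islets versus 2.28 and 1.92 CPM in EKO (log2 fold change -1.78 ± 0.33), and Irx2 at 16.3 and 17.7 CPM versus 7.31 and 3.79 CPM (-1.61 ± 0.38). Their edgeR adjusted p was 0.750 and 0.940. The glucagon gene Gcg itself was less even, at 27810 and 36985 CPM in control islets versus 22054 and 8892 CPM in EKO, and its log2 fold change of -1.07 ± 0.50 ran from -2.06 without the libraries numbered 1 to -0.33 without those numbered 2. The summed alpha cell level was 32099 and 44509 CPM in control islets versus 25977 and 15175 CPM in EKO. In RNA of whole islets, fewer cells of a type and less RNA per cell cannot be told apart.

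In the other hormone cell lists the summed level overlapped between genotypes. Among 30 beta cell genes 11 were higher and 19 lower, with a median of -0.06. Of them 3 lay above and 1 below both controls, 13.3% not overlapping beside 22.1% of all tested genes. That median ran from -0.47 without control replicate 1 to 0.53 across the alternatives. Some members differed more between replicates than between genotypes, as with the glucose transporter gene Slc2a2 at 58.6 and 464 CPM in control islets versus 101 and 507 CPM in EKO, and the transcription factor gene Mafa at 17.0 and 50.5 CPM versus 21.2 and 40.4 CPM. The sum over delta, PP and epsilon cell genes was 5973 and 2304 CPM versus 2868 and 4991 CPM, with Ppy, the pancreatic polypeptide gene, at 2730 and 301 CPM versus 991 and 3079 CPM. Of that list 11 of 15 tested members were lower, at a median of -0.48 that was 0.23 without control replicate 1. Both EKO libraries lay below both controls for 5 members and above for 2, so that 46.7% did not overlap, beside 22.1% of all tested genes. That share is close to that of the alpha cell list.

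In metabolism, genes of fatty acid oxidation and PPAR targets had a median log2 fold change of 0.28 (0.078 to 0.39 across the alternatives), with 26 of 36 higher. Of the 36, 12 lay above and 4 below both controls, 44.4% not overlapping beside 22.1% of all tested genes. Cpt1a, which admits long-chain fatty acids to mitochondria, was at 66.1 and 54.9 CPM in control islets versus 85.8 and 102 CPM in EKO, and Acaa2, a mitochondrial thiolase, at 10.5 and 15.1 CPM versus 20.6 and 45.7 CPM. Neither passed in edgeR or DESeq2. The 2 members called by DESeq2, which called 0.572% of all tested genes, were lower instead. Pdk4, a kinase that shuts off pyruvate dehydrogenase, was at 45.3 and 35.6 CPM versus 14.3 and 9.55 CPM (log2 fold change -1.76 ± 0.30, edgeR adjusted p = 0.627). Lpl, the lipase that frees fatty acids from lipoproteins, was at 250 and 377 CPM versus 140 and 110 CPM.

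Nutrient and signalling genes outside that list gave a similar mixture. Txnip, a glucose-induced inhibitor of thioredoxin and of glucose uptake, was at 144 and 239 CPM in control islets versus 313 and 782 CPM in EKO, with EKO replicate 2 far above the rest (log2 fold change 1.52 ± 0.49, edgeR adjusted p = 1). Its relative Arrdc4 was at 31.7 and 24.2 CPM versus 38.9 and 54.0 CPM. Tfrc, the transferrin receptor for iron uptake, was at 242 and 208 CPM versus 114 and 83.0 CPM. It was the only 1 of 20 iron genes called by DESeq2, which called 0.572% of all tested genes. Il6st, the receptor chain gp130 shared by interleukin-6 family cytokines, was at 179 and 305 CPM versus 113 and 97.0 CPM, and Prkcb, a protein kinase C, at 139 and 164 CPM versus 77.1 and 72.1 CPM. In none of these genes did the groups overlap, which a choice by small p favours.

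Of the stress lists, p53 targets and apoptosis genes had 28 of 39 higher and a median of 0.17 (0.075 to 0.35 across the alternatives), with 12 above and 0 below both controls (30.8% not overlapping, beside 22.1% of all tested genes). By direction, 12.5% of all tested genes lay above both controls and 9.57% below. Bid, which links death receptors to mitochondria, was at 11.6 and 13.5 CPM in control islets versus 21.3 and 22.1 CPM in EKO (log2 fold change 0.79 ± 0.18, edgeR adjusted p = 0.847). It was the only 1 of the 39 called by DESeq2, beside 0.572% of all tested genes. In the unfolded protein response list 29 of 39 were lower, with a median of -0.22 that was 0.085 without control replicate 1. Just 3 lay below and 1 above both controls, 10.3% not overlapping beside 22.1% of all tested genes. Of 41 autophagy and lysosome genes 11 lay above both controls and 0 below, 26.8% not overlapping. Of all tested genes 22.1% did not overlap and 12.5% lay above both controls. The median of this list was 0.02. It ran from -0.026 to 0.13 across the alternatives and was 0.11 without control replicate 1. Among the 11 was Psap, the saposin precursor, at 1150 and 1373 CPM versus 1646 and 2031 CPM. Oxidative phosphorylation (median 0.02), chromatin and sirtuins (0.03) and insulin, IGF and FoxO signalling (0.03) were centred close to the median of all genes. Over all tested genes 48.6% had a log2 fold change above 0.

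**Figure D4:**
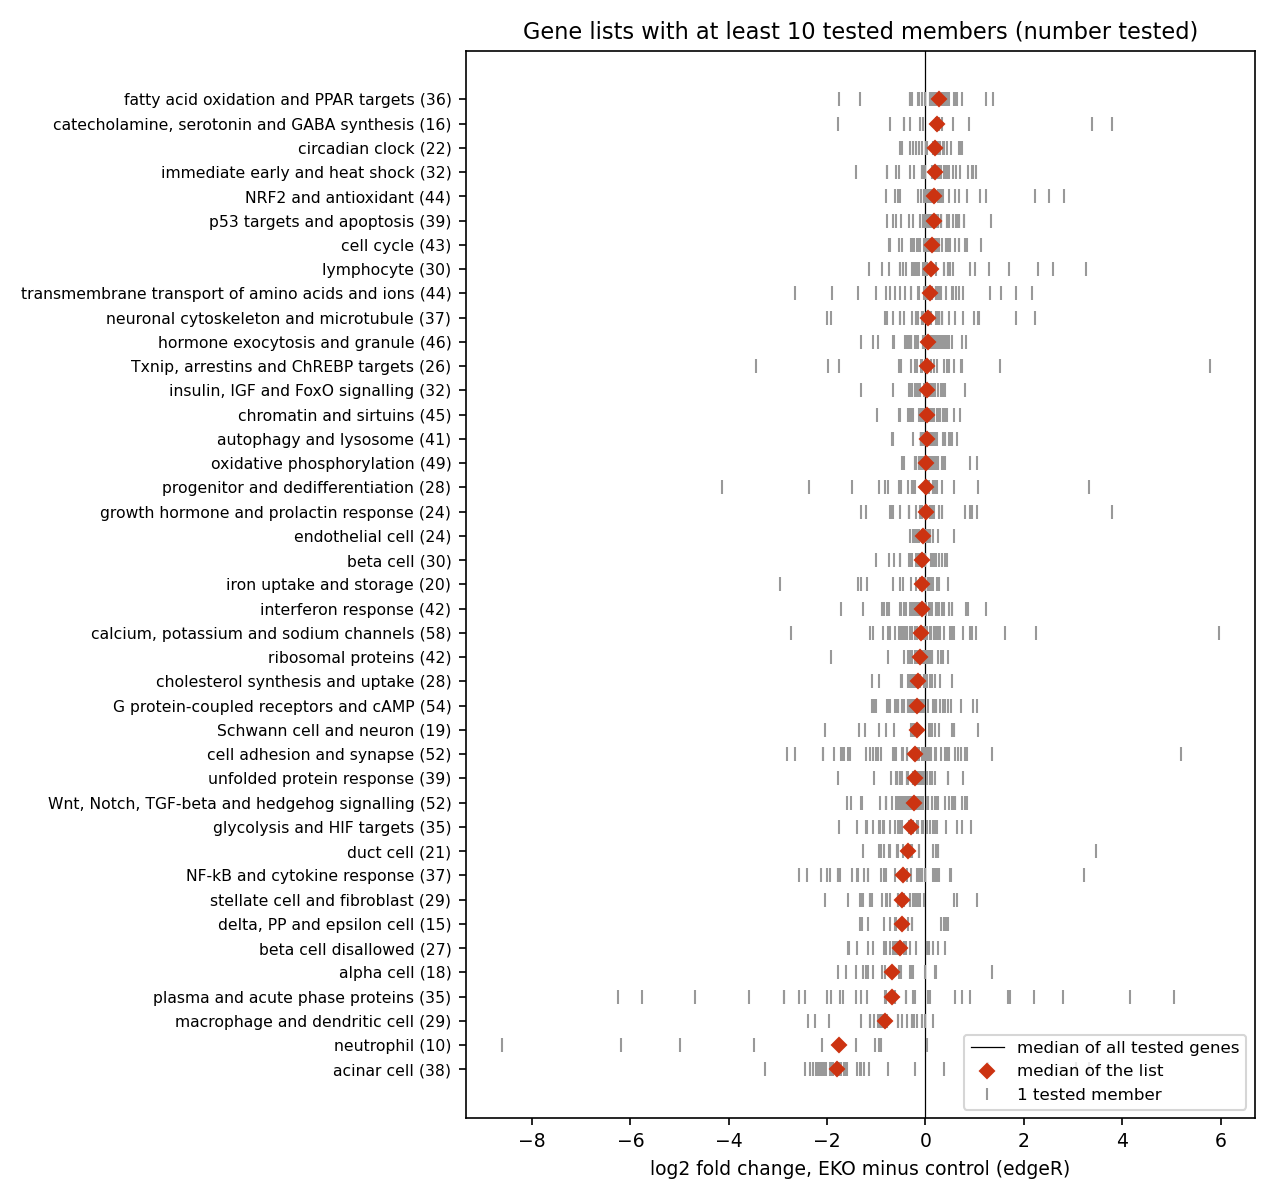
Log2 fold change of EKO minus control by edgeR for each tested member (grey ticks) and the median (red diamond) of every list with at least 10 tested members, with the number tested in brackets and the median of all genes as a vertical line. Medians run from 0.28 for fatty acid oxidation to -1.80 for acinar cells.

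Several lists with strongly negative medians also differed widely between replicates. Acinar genes had a median of -1.80, with 34 of 38 lower. However, 1 of the 38 lay below both controls and 0 above, 2.63% not overlapping beside 22.1% of all tested genes. Neutrophil genes had 9 of 10 lower and a median of -1.76, with 0 members for which both EKO libraries lay on one side of both controls. Macrophage genes had 28 of 29 lower at a median of -0.82, with 3 below both controls (10.3% not overlapping). The list of NF-kB and cytokine response genes, 29 of 37 lower at a median of -0.47, had 3 below and 0 above (8.11% not overlapping). Its summed level was 1722 and 575 CPM in control islets versus 1094 and 620 CPM in EKO, high in the libraries numbered 1 as were the acinar and neutrophil sums, whose part in it was not tested. Genes that beta cells normally keep silent had 21 of 27 lower, a median of -0.52, and 0 members apart from both controls on either side, with a summed level of 1039 and 322 CPM versus 665 and 429 CPM. Without control replicate 1, the library highest in carried-over tissue, the medians turned to 0.997 for acinar, 3.23 for neutrophil, 0.42 for macrophage, 0.67 for NF-kB and 1.25 for the silent genes. Of the 42 lists, 21 had a median that turned sign without that library, and 9 kept their sign under every alternative run. Those 9 were alpha cells, adhesion and synapse, NRF2, p53, fatty acid oxidation, cholesterol synthesis, catecholamine synthesis, transmembrane transport, and G protein-coupled receptors and cAMP.

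The authors' deposited table for this model lists 243 genes, 129 higher and 114 lower, and every unadjusted p-value in it is under 0.05. Of these genes, 33 have an adjusted p under 0.05 in the authors' deposited table, 25 higher and 8 lower, and 12 have none. The groups did not overlap in 238 of the 242 that were tested here, and 80 were at least 2-fold apart in every pairing. Over all tested genes these shares were 22.1% and 0.598%. No gene had the opposite sign in the fit made here. As the authors' genes were chosen by p in the same libraries, these counts and signs are no separate support. Of the 33 genes, 28 (84.8%) were among the 86 DESeq2 calls, of which they are 32.6%. Both selections draw on the same 4 libraries of this model, while the 86 calls also take their spread from the other 4, so this overlap adds no independent evidence. The smallest adjusted p in the authors' deposited table include those of Ambp and Th, with log2 fold changes of 4.40 and 2.49.

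The effect of EKO was also set against that of BKO, in which the deletion was induced in adult beta cells. edgeR's test of the difference between the effects called 0 of 15041 genes, and 152 (1.01%) had an unadjusted p under 0.05. The smallest adjusted p was that of Ambp, 0.0898, whose log2 fold change was 1.81 in BKO, so that the effects differed by 3.24. Th had log2 fold changes of 3.38 in EKO and 1.67 in BKO. Ank2 had -2.01 in EKO and -0.11 in BKO, a difference of -1.90. For both Th and Ank2 the difference had an adjusted p of 1.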

How the data were processed

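Poly(A) RNA of mouse islets was measured in 8 libraries. The authors deposited raw counts of reads per gene symbol, with TopHat, HTSeq and mm9 named in the submitters' processing notes; no version or strand setting is given in the sources used here. HTSeq's class rows (reads aligned to several places, 31.6% to 39.7% of the EKO-model libraries) were left out, so genes with near-identical copies, and overlapping or antisense genes, are uncertain. The 25 symbols turned into dates were not named. The authors' deposited table gives a mean normalised signal, log2 fold changes with errors, a test score and p-values, per the file headers; its tool is not stated.

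Differences were tested with edgeR 4.0.16 (R 4.3.3; quasi-likelihood F test, TMM, filterByExpr with a count minimum of 10) in 1 fit of 4 groups over all 8 libraries, with 4 residual degrees of freedom and Benjamini-Hochberg adjustment over 15041 genes at 0.05. The SE is the log2 fold change divided by the root of F. DESeq2 1.42.0 and limma-voom (limma 3.58.1) were alternatives, as were DESeq2 size factors, no filter, a 4-library fit, a replicate block, marker levels as covariates (mean log2 CPM, prior count 2) and each library left out. The fits were tested on simulated data, where DESeq2 called more unchanged genes than edgeR or limma-voom did. Each gene was drawn independently with the spread that edgeR had estimated, without differences between replicates that genes share. The simulation therefore does not rank the tools on these data. Genes were named by rule: the calls, per direction the 15 genes with the smallest p among those 1.5-fold apart in every pairing with a mean of at least 5 CPM, the 6 smallest above 100 CPM, list members with the smallest p or highest level, genes most unequal between replicates, and leading genes of the authors' table. Others were chosen after their values were seen: Alb, Apoa1, Fgb, F2, Nr1i2, Slc2a2, Mafa, Hnf4a, Foxa2, Pipox, Cpb2, Bcmo1, Cdhr2, Lrrtm4 and the promoter motifs were not set by the rule. The members and the 42 gene lists were chosen with earlier results of these data known. The design text names more than 1 sequencer model but not the libraries run on each, so a batch within the 4 libraries compared could not be placed. A gene that the rule names is not reported here.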

Additional observations from a re-analysis of the deposited data

How the results depend on the processing

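For genes with a reported log2 fold change no alternative run turned a direction except that of Sirt6, at -0.014 without the pair numbered 2 and from -0.091 (without EKO control replicate 2) to 0.40 with 1 library left out. edgeR's 1 call became 0 when the 4 EKO-model libraries were fitted alone and 0 without the pair numbered 2, and 2 (Ambp and the noncoding RNA Snhg11, lower) without the pair numbered 1. With 1 library left out at a time it was 1 to 2, the 2 arising without EKO control replicate 1, and DESeq2 gave 86. The 556 genes at an unadjusted p under 0.05 became 254 in the 4-library fit, 1042 with the acinar covariate, 1077 with acinar and macrophage and 984 with acinar and lymphocyte covariates, 1119 and 1279 without the pairs numbered 1 and 2, and 379 to 1621 without 1 library. DESeq2's 86 calls became 41, 232, 207 and 175 in the first 4 of these settings and 66 to 396 without 1 library. Of the 86, 34 were among the 41, 70 among the 207 and 68 among the 175. Its own size factors are its default and gave no further value. The 90 genes at least 2-fold apart became 273 at 1.5-fold, 21 at 3-fold, 42 with 2 CPM added and 265 to 987 without 1 library, when fewer pairings have to hold. The cause of the other shifts was not tested. The covariates with lymphocytes, the paired leave-outs and TMM within DESeq2 were chosen after seeing the data. Among named genes 40 of 1474 values under an alternative newly passed, all with DESeq2, and list medians moved beyond their spread in 96 of 923.

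The replicate numbers are not stated to mark a shared animal or day, and 2 pairs are too few to show it. The differences between numbers 1 and 2 correlated across genes at 0.587 between the genotypes. With the replicate block edgeR had 1023 genes at an unadjusted p under 0.05, and its 1 call was still Ambp. DESeq2 called 232, of which 76 were among the 86. At these depths genes under about 1 CPM rest on few reads, and their levels are uncertain.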

Other observations

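Among genes with a mean of at least 10 CPM, those most unequal between replicates included genes known from lymphoid, nerve and stromal tissue. Glycam1, a mucin of the vessels through which lymphocytes enter lymph nodes, was at 6.63 CPM in control replicate 1, 0.046 CPM in control replicate 2, 0.044 CPM in EKO replicate 1 and 180 CPM in EKO replicate 2. Igj, the joining chain of secreted antibodies, was at 4.73 and 0.139 CPM in the controls, had no read in EKO replicate 1 and reached 47.1 CPM in EKO replicate 2. Both were highest in EKO replicate 2, one of the libraries with a high summed lymphocyte level. Vip, a peptide of pancreatic nerves, was at 17.5 CPM in control replicate 1 and 34.1 CPM in EKO replicate 1 and had no read in the replicates numbered 2. Tnc, a matrix protein of activated stroma, stood at 1121 and 3.30 CPM in control islets versus 444 and 30.6 CPM in EKO, and Reg3b, an antibacterial lectin of stressed acinar cells, at 196 and 2.28 CPM and at 78.8 and 0.796 CPM. In none of these genes did the genotypes separate, which their choice as genes most unequal between replicates favours.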
